A study of Mus musculus with 7 samples.

Results

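AP-1 is a dimeric transcription factor built from the Fos and Jun families, and the results below describe its 7 genes (*Fos*, *Fosb*, *Fosl1*, *Fosl2*, *Jun*, *Junb* and *Jund*) in cultured mouse cortical neurons. The genes were chosen by name, and every probe set that the array's annotation gives to exactly 1 of them was taken. That yields 11 probe sets of 45101 on the array, 6 of the Fos family and 5 of the Jun family. Of these, 8 probe sets from 6 genes reached a level of 50 on at least 1 array and entered the test, among 22748 probe sets tested in all. The other 3, both probe sets of *Fosl1* and 1 of *Jund*, stayed below 50 on every array and are given as levels only.

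The neurons came from cortex of C57/Bl6J embryos of day 16 and were kept for 16 days in vitro. Luciferase neurons (4 arrays, replicates 1 to 4) had received lentivirus with a short hairpin against luciferase, a gene that mice lack, transcribed from a human H1 promoter in a vector that also carries green fluorescent protein. Blank neurons (3 arrays, replicates 5 to 7, labelled naïve) had received no virus. The luciferase hairpin served the study as control for hairpins against autism-linked genes, so the comparison asks what the control transduction itself did to the neurons. Virus, vector, fluorescent protein and hairpin differ together between the groups and cannot be told apart. The methods describe parallel cultures randomized over plates and name no separate litters, so the p-values reflect the spread among these cultures alone, and that spread may be technical. Levels are given as linear RMA intensity from Affymetrix arrays. Below, called means a change of at least 1.5-fold with an adjusted p up to 0.05 (limma, Benjamini-Hochberg over all tested probe sets). Levels of different probe sets are not comparable, because each has its own probes, so only changes between groups are set against each other.

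As background, Fos proteins bind DNA only as heterodimers with a Jun protein, whereas Jun proteins can also pair with each other or with ATF proteins. *Fos* and *Fosb* are immediate early genes, which neurons switch on within minutes of synaptic activity through CREB and SRF at their promoters. *Jun* is held and activated differently: its protein is phosphorylated by the JNK kinases, it binds its own promoter, and in neurons it is known for the response to axon injury and stress.

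*Fos* and *Jun* changed in opposite directions. In luciferase neurons *Fos* and *Fosl2* fell below their blank levels, by 2.12-fold for *Fos* and by 1.73-fold and 1.64-fold for the *Fosl2* probe sets, and *Jun* rose by 1.76-fold and 1.89-fold on its probe sets. *Junb* and *Jund* did not pass the test. *Fosb* entered the test only through 1 blank array, which favours a lower value in luciferase neurons, so it is not counted. Of the other 7 tested probe sets, the 3 of the Fos family (from *Fos* and *Fosl2*) were called lower, and of the 4 of the Jun family 2, both of *Jun*, were called higher. Over all 22748 tested probe sets 4.19% were called, 2.9% higher and 1.29% lower. The arrays of the groups did not overlap for 6 of the 7, 3 lower and 3 higher in luciferase neurons. Over all tested probe sets the arrays did not overlap for 34.8%, 12.3% lower and 22.5% higher.

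The sequences before the start sites are shown for *Fos*, *Fosl2* and *Jun*, which were called, and for *Fosb*, like *Fos* an immediate early gene. They were taken from RefSeq (GRCm38.p6), in which 6 of the 7 genes have a promoter window. The last 100 bases before the start are printed 5′ to 3′ on the gene's strand, with capitals for the 5-letter CRE core TGACG or for the 8-letter sequence TGACATCA.
Fos: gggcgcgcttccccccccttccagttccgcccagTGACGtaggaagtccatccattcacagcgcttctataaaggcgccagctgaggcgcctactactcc
Fosb: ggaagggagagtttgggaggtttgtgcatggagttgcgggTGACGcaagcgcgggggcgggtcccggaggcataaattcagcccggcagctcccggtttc
Fosl2: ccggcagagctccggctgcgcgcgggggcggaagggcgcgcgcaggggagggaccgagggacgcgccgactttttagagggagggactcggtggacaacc
Jun: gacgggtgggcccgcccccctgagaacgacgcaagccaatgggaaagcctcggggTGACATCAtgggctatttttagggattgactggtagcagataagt
These lie at chr12:85473790-85473889 on the plus strand for *Fos*, chr7:19310046-19310145 on the minus strand for *Fosb*, chr5:32136372-32136471 on the plus strand for *Fosl2*, and chr4:95052223-95052322 on the minus strand for *Jun*.

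All 250 upstream bases of each window were searched on both strands for motifs chosen after these promoters had been seen. TGACG, the core of the element that CREB binds, was found in *Fos* at 129 and 66 bases before the start, in *Fosb* at 60 and in *Junb* at 106, and in 17.8% of the 32851 windows in RefSeq. The full palindrome TGACGTCA was in 0 of the 6 windows and in 1.55% of all. TGACATCA, a sequence like the AP-1 site that JUN dimers are known to bind, was in *Jun* at 45 bases before the start and in 2.93% of all windows. The shorter AP-1 site TGACTCA was in 0 of the 6 and in 4.46% of all. TATAAA stood in *Fos* at 33 bases before the start (12.4% of all windows), and the CCAAT box in *Jun* and *Junb* (33.8%). GGGCGG, the GC box, was in *Jun*, *Fos*, *Fosb* and *Fosl2* (32.7%). The CArG box, to which SRF binds, was in 0 of the 6 windows and in 1.47% of all. Bases farther upstream than 250 were not searched, so a CArG box there would have been missed. *Fosl2*, lower as *Fos* was, held neither TGACG nor TGACATCA in its window. A match of letters is a description of the sequence, and binding was not measured.

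*Fos* encodes the founding member of the family and its mRNA is the classical marker of recent neuronal activity. Its probe set 1423100_at had levels of 626, 1017, 975.5 and 1318 on the luciferase arrays, against 2241, 1952 and 1869 on the blank arrays. The groups did not overlap, and the highest luciferase array stayed well under the lowest blank one. Luciferase neurons averaged 984 ± 283 (SD, n = 4), which is 48.7% of the blank mean of 2021 ± 195 (SD, n = 3). The log2 change was -1.08 with a 95% interval from -1.55 to -0.62 (standard error, SE, 0.21, adjusted p = 0.00695 in limma). *Fos* was also the member that varied most within the luciferase group: replicate 4 was 2.11 times as high as replicate 1, and the SD on the log2 scale was 0.45 in luciferase neurons and 0.14 in blank neurons.

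*Fosb* encodes a relative of FOS whose truncated form accumulates in neurons after repeated stimulation. Its levels on 1422134_at were 13.55, 16.8, 17.6 and 20.2 in luciferase neurons, against 33.15, 34.1 and 58.0 in blank neurons. Only blank replicate 7 stood above 50, so that 6 of the 7 arrays lay under the level that the study's methods required, and *Fosb* is given by these levels alone, with no change and no test.

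*Fosl2* encodes FRA2, a Fos relative without the strong activation domain of FOS. On 1437247_at its levels were 951, 1205, 1132 and 1205 in luciferase neurons, against 1837, 1606 and 2451 in blank neurons. Blank replicate 7 was the highest array, the luciferase arrays lay within 1.27-fold of each other, and the groups did not overlap. The log2 change was -0.79 (SE 0.14, 95% interval -1.11 to -0.47, adjusted p = 0.00579 in limma). The mean luciferase level was 57.2% of the blank mean. The other probe set, 1422931_at, had levels of 84.4, 84.4, 104 and 93.9 in luciferase neurons, against 166, 141 and 142 in blank neurons. Here the log2 change was -0.71 (SE 0.10, 95% interval -0.93 to -0.49, adjusted p = 0.00199 in limma). The mean luciferase level was 61.2% of the blank mean, and the groups again did not overlap. Both probe sets therefore gave the same direction and nearly the same size.

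*Fosl1*, which encodes FRA1, stayed below 50 on every array. Its probe sets had levels from 22.1 to 32.6 (1417487_at) and from 12.9 to 14.3 (1417488_at) in luciferase neurons, and from 29.9 to 35.8 and from 16.0 to 19.0 in blank neurons. The highest of these values, 35.8, lies just outside the limit of 50, and the 58.0 of *Fosb* on blank replicate 7 lies just inside it.

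**Figure D1:**
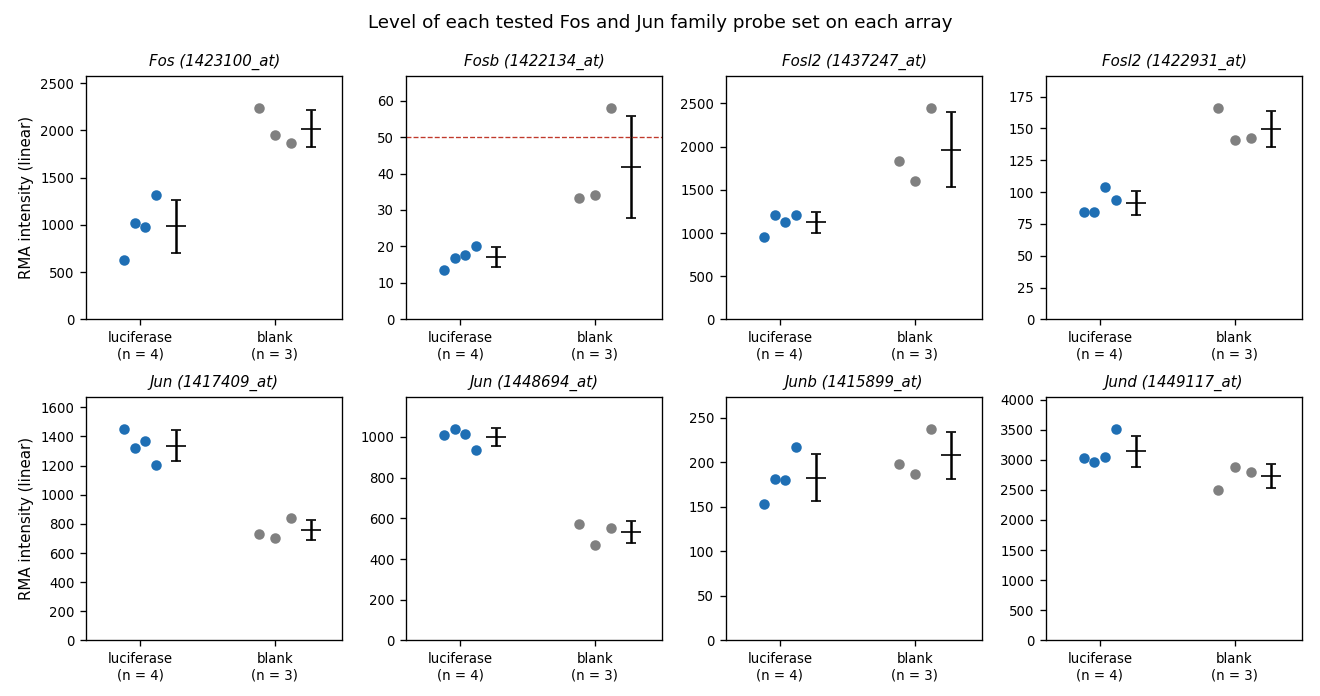
Level of each tested Fos family (upper row) and Jun family (lower row) probe set as RMA intensity on a linear axis from 0, for luciferase neurons (blue, n = 4) and blank neurons (grey, n = 3). Points are arrays in replicate order, bars beside them give mean ± SD, and the dashed line in the *Fosb* panel marks the level of 50. In *Fos* the luciferase arrays reach at most 1318 and the blank arrays at least 1869, and in *Jun* (1417409_at) the luciferase arrays lie at 1203 or more and the blank arrays at 839 or less.

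*Jun* encodes the central Jun protein, target of the JNK kinases. Its levels on 1417409_at were 1453, 1323, 1371 and 1203 in luciferase neurons, against 732, 706 and 839 in blank neurons. All luciferase arrays were higher than all blank arrays, and the spread was small in both groups (1338 ± 104 for luciferase, SD, n = 4, and 759 ± 70.9 for blank, SD, n = 3). The log2 change was 0.82 (SE 0.092, 95% interval 0.61 to 1.03, adjusted p = 7.2e-04 in limma). A second probe set, 1448694_at, had levels of 1011, 1040.1, 1015 and 935 in luciferase neurons, against 572, 471 and 552 in blank neurons. It gave a log2 change of 0.92 (SE 0.087, 95% interval 0.72 to 1.11, adjusted p = 3.4e-04 in limma). On each of the probe sets replicate 4 was the lowest luciferase array.

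*Junb* encodes a Jun protein that activates less strongly than JUN and can oppose it, and that is itself induced by activity. Its levels on 1415899_at were 153, 181, 180.1 and 217 in luciferase neurons, against 199, 187 and 238 in blank neurons. The groups overlapped, since luciferase replicate 4 lay above 2 of the blank arrays. The log2 change of -0.19 had a 95% interval from -0.47 to 0.094 (adjusted p = 0.301 in limma), which leaves room for a moderate fall and for little or no rise.

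*Jund* encodes the Jun protein that most cells hold without stimulation. On 1449117_at its levels were 3029.8, 2959.6, 3054 and 3515 in luciferase neurons, against 2506, 2879 and 2795 in blank neurons. The arrays did not overlap, but the gap between the nearest arrays was small, and luciferase replicate 4 stood above the other 3. The log2 change was 0.20 (SE 0.088, 95% interval 0.0058 to 0.40, adjusted p = 0.119 in limma). A further *Jund* probe set, 1440265_at, stayed between 14.0 and 16.4 in luciferase neurons and between 15.5 and 19.9 in blank neurons.

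**Figure D2:**
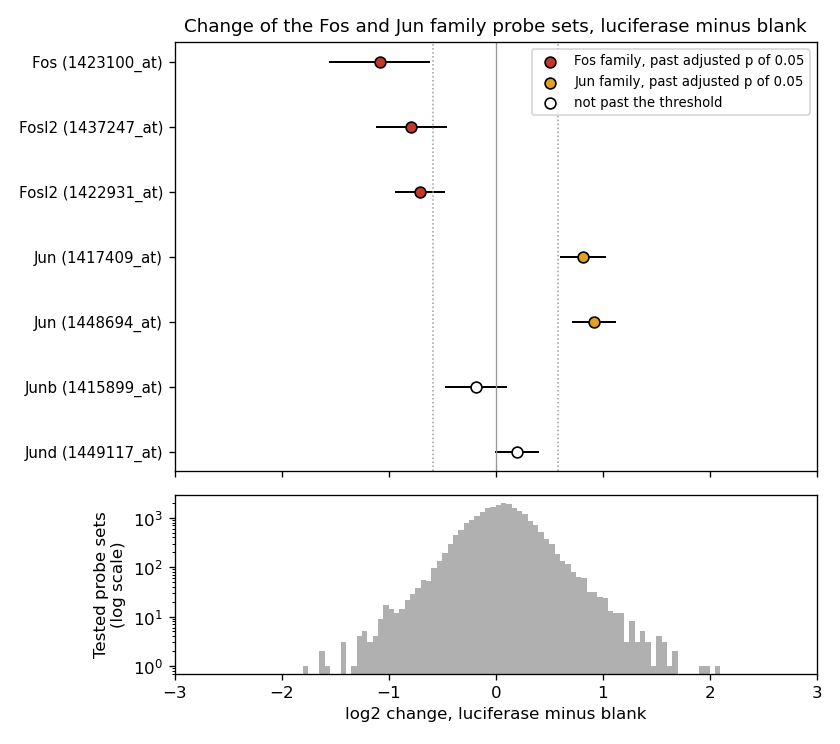
Upper panel: log2 change (luciferase minus blank, 4 against 3 arrays) of each tested probe set with its 95% interval in limma, filled where the adjusted p was at most 0.05 (red for the Fos family, yellow for the Jun family); dotted lines mark 1.5-fold. Lower panel: number of probe sets, on a log axis, at each log2 change among all 22748 tested, with a median of 0.056. *Fosb* is left out. The 3 Fos family probe sets lie between -1.08 and -0.71, *Jun* at 0.82 and 0.92, and *Junb* and *Jund* at -0.19 and 0.20.

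The contrast between *Fos* and *Jun* was then taken array by array, as the log2 level of *Fos* relative to its blank mean minus that of *Jun* (1423100_at and 1417409_at, the probe set of each with the highest mean level). It was -2.63, -1.79, -1.90 and -1.28 on the luciferase arrays, against 0.20, 0.056 and -0.26 on the blank arrays. No luciferase array came near the blank arrays, and the mean difference was -1.90 (SD 0.55 over 4 luciferase arrays and 0.24 over 3 blank arrays). *Fos* and *Jun* had each been shown to differ without overlap and in opposite directions, so this contrast had to separate the groups and is given as a description with no test.

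The family means are given as a description too. The mean of the 3 Fos family probe sets at 50 or more on every array stood at -1.18, -0.83, -0.78 and -0.65 relative to blank on the luciferase arrays, against 0.078, -0.13 and 0.055 on the blank arrays. The mean of the 4 Jun family probe sets stood at 0.40, 0.43, 0.44 and 0.48 on the luciferase arrays, against -0.029, -0.084 and 0.11 on the blank arrays. The Jun family mean joins *Jun*, which rose, with *Junb* and *Jund*, which did not pass, and does not stand for each of its genes. The SD of *Junb* over the luciferase arrays, 0.20 on the log2 scale, was above those of the *Fosl2* probe sets (0.16 and 0.14). All members share the arrays, and the *Jun* and *Fosl2* values each come from a pair of probe sets for 1 gene, so members are not replicates.

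Within the luciferase group the members did not all rank the arrays alike. Replicate 1 was the lowest and replicate 4 the highest luciferase array for *Fos*, *Fosb*, *Junb* and *Fosl2* on 1437247_at. For *Jun* on 1417409_at the order was turned round, with replicate 1 highest and replicate 4 lowest. *Jund* had its highest value on replicate 4 too. The other *Jun* probe set was highest on replicate 2 (1040.1), and the other *Fosl2* probe set on replicate 3 (104). Relative to the blank mean on the log2 scale, *Fos* therefore stood at -1.69 on replicate 1 and at -0.61 on replicate 4, while *Jun* on 1417409_at stood at 0.94 on replicate 1 and at 0.67 on replicate 4.

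**Figure D3:**
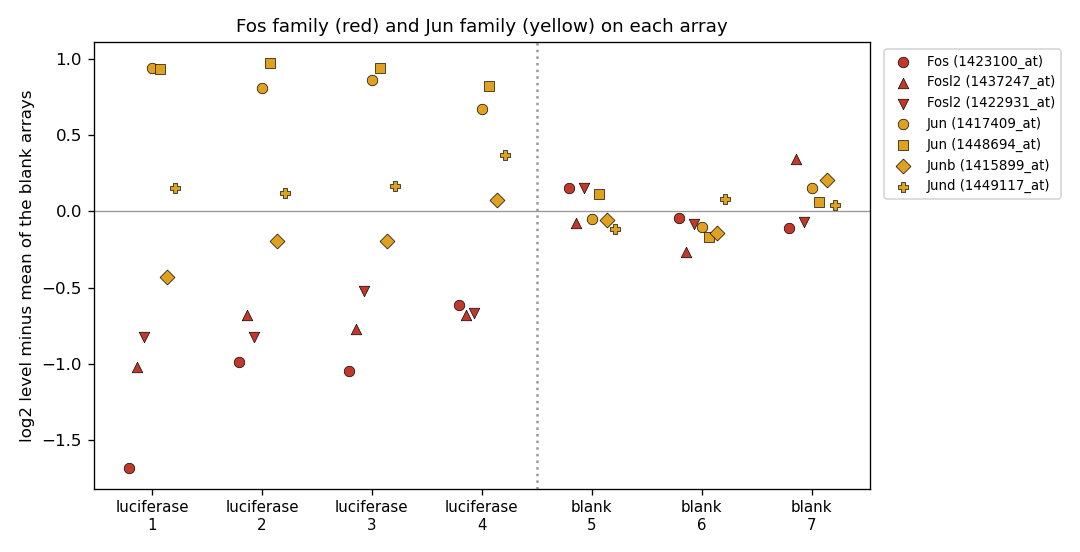
Log2 level of each tested probe set other than that of *Fosb* minus its mean over the blank arrays, for each of the 4 luciferase arrays (left of the dotted line) and the 3 blank arrays (right). Red marks are the Fos family and yellow marks the Jun family, and each shape is 1 probe set. On every luciferase array all red marks lie below 0 and both *Jun* marks above it, with *Fos* ranging from -1.69 on replicate 1 to -0.61 on replicate 4.

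The genes whose pattern over the 7 arrays was most like that of *Fos* were sought among 18140 probe sets at 50 or more on all arrays, by the root mean square difference of log2 level relative to blank. *Bdnf*, which encodes a neurotrophin released with activity, was nearest at 0.163 on 1422169_a_at, with 243, 387, 401 and 496 in luciferase neurons, against 758, 628 and 662 in blank neurons. Its log2 change was -0.88, and its other probe set gave -0.96. The genes were picked for this likeness, so their changes are a description and no test is given. *Dcn*, which encodes the matrix proteoglycan decorin, followed at 0.163 (log2 change -1.0). *Nr4a1*, an immediate early gene for a nuclear receptor, was the third at 0.168 (log2 change -1.03).

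For *Jun* the nearest patterns were closer. *Crebzf*, which encodes a bZIP protein, had a difference of 0.0643 on 1452856_at, with 788, 729.7, 786 and 714 in luciferase neurons, against 446, 415 and 475 in blank neurons. Its log2 change was 0.76, and its other 3 tested probe sets gave 0.77, 0.094 and 0.23. *Aldh1l1*, an enzyme of folate metabolism used as a marker of astrocytes, stood at 0.0730 (log2 change 0.86). The histone gene *H2bc21* stood at 0.0787 (log2 change 0.85), on a probe set whose probes may match other histone copies.

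Markers of the cell types that a cortical culture can hold were read on the same arrays. Their intensities were summed only to set the same sum against itself between the groups. All 9 neuronal markers were measured, and their summed level was 33805 to 35519.7 in luciferase neurons and 31381 to 34187 in blank neurons, with only *Slc17a7* past the test (higher). All 10 astrocyte markers were measured, and their sum was 30493 to 33157 in luciferase neurons and 23322 to 25862 in blank neurons, without overlap. Of these 10, 6 passed the test and all 6 were higher, among them *Gfap* (1.19) and *Aldh1l1* (0.86), in the direction of *Jun*. Over all tested probe sets 16.2% passed higher. *Aldh1l1* was picked above for its likeness to *Jun*, so its direction here adds nothing further. The part of astrocytes in the change of *Jun* was not tested. Microglial markers were low: 2 of 10 were measured, with a sum of 172 to 205 in luciferase neurons and 195 to 280.4 in blank neurons. These were *Cd68* (-0.40) and *Csf1r* (-0.21), and neither passed. *Cd68* had 78.7 to 121.7 in luciferase neurons and 88.1 to 188.3 in blank neurons. *Csf1r* had 77.8 to 95.15 in luciferase neurons and 92.1 to 107.3 in blank neurons. *Aif1*, *Cx3cr1*, *P2ry12* and *Tmem119* stayed below 50. Of the 10 vascular and meningeal markers 4 were measured, with a sum of 524 to 712 in luciferase neurons and 933 to 1088 in blank neurons. *Dcn* and *Col1a2* were lower, *Pdgfrb* was higher, and *Kdr*, an endothelial gene, did not pass (-0.25). *Kdr* had 44.4, 45.4, 41.6 and 60.05 in luciferase neurons, against 48.6, 62.35 and 59.3 in blank neurons. *Pecam1*, *Cldn5* and *Cdh5*, which define endothelium, stayed below 50. The vascular and meningeal sum moved in the direction of *Fos* mainly through *Dcn*, which had 347 to 540 in luciferase neurons and 760 to 940 in blank neurons. *Dcn* makes up most of the sum and was picked above for its likeness to *Fos*, so the sum adds little beyond that gene. The part of vascular and meningeal cells in the change of *Fos* was not tested. Oligodendrocyte markers (8 of 10 measured) summed to 6384 to 7654 in luciferase neurons and 6729 to 6909 in blank neurons, and markers of dividing cells (4 of 5 measured) to 3905 to 4908 and 3417 to 3834. The sums for dividing cells did not overlap, but none of the 4 genes passed. *Pcna* makes up most of these sums, with a mean of 3403 in luciferase neurons and 2818 in blank neurons. In a culture, fewer cells of a type and less RNA per cell cannot be told apart.

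Genes that act around AP-1 were then counted on the probe set of each gene with the highest mean level. The share of all tested probe sets that passed the adjusted p at any fold was 24.5%, 16.2% higher and 8.26% lower, with a median log2 change of 0.056. These shares and the median are set beside the lists that follow. They cover every tested probe set, whereas the lists use the probe set of highest level for each gene, and a share on that basis was not computed. The lists were also chosen with earlier results of these data known, so their shares are descriptions. The counts rest on 1 probe set a gene, and the other probe sets of the list genes are counted beside them.

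Of 22 partners of Fos and Jun proteins among the ATF, BATF, MAF and NFE2 factors, 16 were measured, and 1 passed the test. This was *Nfe2l2*, which encodes the oxidative stress factor NRF2 (0.24, adjusted p = 0.0435 in limma). The other 15 did not pass, including *Atf3*, a stress-induced partner of JUN, whose levels were 79.0, 118, 79.6 and 83.0 in luciferase neurons, against 91.2, 87.9 and 135 in blank neurons. The median of the list was -0.096. The dimer partners outside the Fos and Jun families thus gave 6.25% past the test. Of 9 other probe sets of these genes 1, of *Maf* (0.47), passed. *Nfe2l2* no longer passed when luciferase replicate 1, 2 or 3 or blank replicate 5 or 6 was left out (adjusted p from 0.0853 to 0.138 in limma).

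Of 25 symbols listed for regulators that act on *Fos* transcription through SRF and CREB, 18 were measured. Of these 18, 4 passed higher, 1 passed lower and 13 did not pass (27.8% past the test, median 0.14). The list holds older symbols of *Mrtfa* and *Mrtfb* beside the current ones, under which both genes were measured. *Srf*, the serum response factor itself, had levels of 375, 433, 391 and 375 in luciferase neurons, against 282, 266 and 280.2 in blank neurons. It was higher without overlap on 1418255_s_at (0.51, adjusted p = 0.00276 in limma), but its other probe set 1418256_at gave -0.14 (adjusted p = 0.167 in limma). *Rps6ka5*, which encodes the kinase MSK1 that phosphorylates CREB and histone H3, was higher on both of its probe sets (0.56 and 0.57). *Creb1* (0.34), whose probe set 1452901_at had 706, 633, 669.6 and 717 in luciferase neurons, against 529, 498 and 585 in blank neurons, and *Crtc3* (0.35), a coactivator of CREB, were higher too. *Camk4*, a nuclear calcium-dependent kinase of CREB, was lower (-0.27, adjusted p = 0.0219 in limma). None of the 5 reached 1.5-fold on these probe sets. The other tested probe sets of *Creb1* gave 0.82, which passed, and 0.21, which did not, and that of *Crtc3* gave -0.11 without passing. Left out 1 at a time, blank replicates 5 and 6 ended the passes of *Creb1* (adjusted p = 0.0577 and 0.0657 in limma) and *Crtc3* (0.0589 and 0.0881), and blank replicate 5 that of *Camk4* (0.0688). Luciferase replicates 2 and 3 ended that of *Crtc3* as well (0.0586 and 0.0616), and luciferase replicates 1, 2 and 3 that of *Camk4* (0.0538, 0.0545 and 0.0536). The share past the test was close to that of all tested probe sets. Of 30 other probe sets of the list 5 passed higher and 3 lower, and 2 of the 5 were called, of *Creb1* and of *Mef2c* (0.64), an activity-regulated factor.

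Of 28 genes of the JNK and ERK cascades 23 were measured, 4 passed higher, 2 passed lower and 17 did not pass (26.1%, median -0.013). *Dusp16*, a phosphatase that acts on JNK, was the only one called on the probe sets used, with 159, 179, 178 and 167 in luciferase neurons, against 101, 92.8 and 157 in blank neurons (0.59, adjusted p = 0.0277 in limma). Its luciferase arrays lay close together, and blank replicate 7 stood just below them. The call was lost without blank replicate 5 or 6 (adjusted p = 0.0932 and 0.0976 in limma) and without luciferase replicate 2, 3 or 4 (0.0622, 0.0683 and 0.0513). *Map2k4*, a kinase of JNK (0.21), *Map3k11*, a kinase further upstream (0.29), and *Mapk8ip2*, a JNK scaffold (0.30), passed higher at small sizes. *Braf*, which starts the ERK cascade (-0.36), and *Mapk8ip1*, another JNK scaffold (-0.56), passed lower. The other tested probe sets of *Braf* gave -0.058, -0.12 and -0.47 without passing. The scaffold *Mapk8ip1* had a second probe set at 0.32 that did not pass (adjusted p = 0.0606 in limma), so its direction is not settled. Among the small changes, *Map2k4* no longer passed whichever array was left out (adjusted p from 0.050 to 0.119 in limma), and *Mapk8ip1* passed only where luciferase replicate 1 was the array left out (0.0579 to 0.117 for the others). *Map3k11* needed luciferase replicates 1 and 2 and blank replicate 5 (adjusted p = 0.0597, 0.0577 and 0.0838 without each, in limma), and *Mapk8ip2* needed luciferase replicate 3 and blank replicates 5 and 6 (0.0531, 0.0789 and 0.0666). Of the genes of JNK itself, *Mapk8* did not pass on the probe set used (-0.013) but passed on 1 of its 4 others (0.24, adjusted p = 0.0338 in limma), and *Mapk9* and *Mapk10* passed on none. Of 28 other probe sets of the list 5 passed higher and 3 lower. Among them were *Map3k9*, called lower (-0.73, adjusted p = 0.0241 in limma), and *Map3k12* (-0.49), both kinases upstream of JNK. On the probe sets used, of higher level, *Map3k9* (0.024) and *Map3k12* (0.19) did not pass, so their direction is not settled either.

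Of 18 symbols listed for genes that govern the decay of FOS and JUN protein or mRNA 16 were measured and 2 passed (12.5%, median 0.041). The list holds an older symbol of *Cop1* beside the current one, under which it was measured. *Elavl1*, whose product HuR stabilises mRNAs with AU-rich elements, was higher (0.38, adjusted p = 0.0130 in limma). *Det1*, part of a ubiquitin ligase for JUN, was lower (-0.35, adjusted p = 0.0484 in limma). *Elavl1* passed whichever array was left out, whereas *Det1* passed only where blank replicate 6 was the one left out (adjusted p from 0.0637 to 0.110 for the others, in limma). The other 3 probe sets of *Elavl1* did not pass (0.095, 0.13 and 0.22). The remaining 14 genes did not pass on the probe sets used. Of 14 other probe sets of the list 3 passed higher, of *Fbxw7* (0.32) and *Nedd4* (0.36 and 0.39), which encode parts of ubiquitin ligases, and 1 passed lower, of the kinase gene *Gsk3b* (-0.36).

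Of 34 genes that have been reported as AP-1 targets 22 were measured, 9 passed higher, 1 passed lower and 12 did not pass (45.5%, median 0.11). *Gal*, which encodes the neuropeptide galanin, had 227, 262, 253 and 302 in luciferase neurons, against 85.0, 81.7 and 88.3 in blank neurons. It was 3.06-fold higher, with a log2 change of 1.61 (SE 0.098, adjusted p = 5.7e-05 in limma). *Bcl2l11*, which encodes the pro-apoptotic protein BIM, had 347, 365, 419 and 472 in luciferase neurons, against 203, 187 and 156 in blank neurons (1.14, adjusted p = 7.0e-04 in limma). The neuropeptide gene *Nts* (0.78) and *Cd44*, which encodes a receptor of hyaluronan (0.68), completed the 4 genes called on the probe sets used, and all 4 were higher. The call of *Cd44* was lost without blank replicate 5 or 6 (adjusted p = 0.0523 and 0.0557 in limma), and its second probe set was called as well (0.81).

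Below 1.5-fold, the other genes of that list that passed higher were *Gclm* (0.52) for glutathione synthesis, *Hrk* (0.44), which encodes a pro-apoptotic relative of BIM, the AMPA receptor subunit gene *Gria2* (0.37), *Vim* (0.35) and *Ccnd1* (0.26). *Mmp9*, a matrix protease, was lower (-0.33). The other tested probe sets of *Gclm* (0.15), *Hrk* (0.12) and *Vim* (0.29) did not pass. Those of *Gria2* gave 0.34, which passed, and 0.078, which did not. Those of *Ccnd1* passed (0.40 and 0.35). Without blank replicate 5 or 6 *Gclm* (adjusted p = 0.0575 and 0.0705 in limma), *Hrk* (0.0658 and 0.0660) and *Ccnd1* (0.0820 and 0.113) no longer passed. *Vim* was lost without blank replicate 5 (0.0550), *Mmp9* without luciferase replicate 2 or blank replicate 6 (0.0546 and 0.0543), and *Ccnd1* also without luciferase replicate 2, 3 or 4 (0.0825, 0.0639 and 0.0849). *Nptx2*, which encodes a secreted synaptic pentraxin, did not pass on the probe set used (-0.84, adjusted p = 0.0732 in limma) but was called lower on its other one (-1.05, adjusted p = 0.0252 in limma). Others that did not pass were *Hmox1* (-0.42), *Scg2* (-0.41), *Pdyn* (-0.38), *Npy* (-0.27) and *Gadd45a* (-0.012). Of 14 other probe sets of the list 7 passed higher and 2 passed lower, those of *Nptx2* and of the kinase gene *Cdk5* (-0.38). On the probe set used, *Cdk5* did not pass (0.15).

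**Figure D4:**
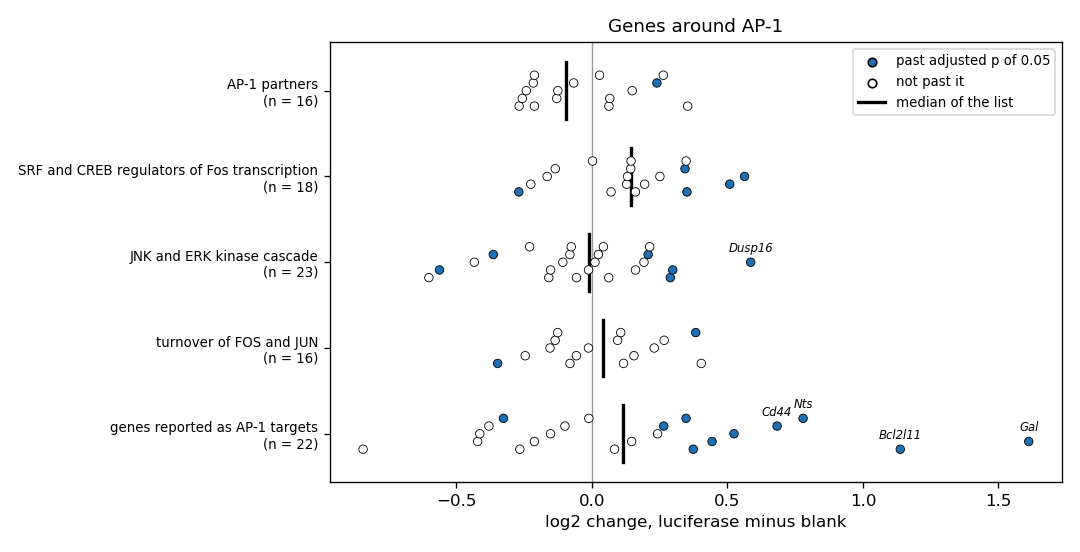
Log2 change (luciferase minus blank) of each measured gene in the 5 lists around AP-1, on its probe set with the highest mean level. Each point is 1 gene, blue where the adjusted p was at most 0.05 and white otherwise, the black bars are the list medians, and the 5 genes called on these probe sets are named. *Gal* (1.61) and *Bcl2l11* (1.14) lie farthest to the right, and the medians run from -0.096 to 0.14.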

How the data were processed

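RNA was hybridised for the authors to Affymetrix Mouse 430_2 arrays, of which 4 luciferase and 3 blank arrays are used here. The paper states that a sample of the untransduced group failed quality control and was omitted. The deposited values are RMA intensity, not logged (4.69 to 23763 over the 7 arrays), and the set of arrays that entered RMA is not stated. Groups were taken from the treatment labels. The table held 0 columns of other samples.

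The blank columns stand 1 row low and were moved up by 1 row. The log2 group means then had r = 0.995 over 45037 probe sets, against 0.421 or less for the other moves tried, within 3 rows either way, and at least 0.988 in 101 rows around each of the 11 member rows.

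R 4.3.3 with limma 3.58.1 was used for the tests on log2 values (lmFit, eBayes, no covariates) after leaving out 64 controls, 2441 probe sets with _x and those under 50 on all arrays. The calculation was tested on simulated data. The 14 alternatives were other level filters, quantile normalization, centred arrays, trend with robust, array weights, and each of the 7 arrays left out in turn. The planned permutation test of *Fos* against *Jun* is not given, since the separation of each gene fixes its outcome. Array medians over tested probe sets were 237 to 241 in luciferase and 216 to 235 in blank neurons. The number of arrays limits the precision. Symbols came from the array annotation, which gives 34958 probe sets 1 gene, 932 several and 9211 none here, and 34754 were matched by Entrez ID to RefSeq. Some listed genes were not measured here.

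All members were named. From the lists, up to 4 called genes and any gene behind a count of 5 or fewer were named, with the 3 nearest patterns to *Fos* and *Jun*. *Gclm*, *Hrk*, *Gria2*, *Vim*, *Ccnd1*, *Atf3*, *Nptx2*, *Scg2*, *Pdyn*, *Npy*, *Hmox1*, *Gadd45a*, the JNK genes and the genes named for other probe sets were chosen with their values in view. The members and lists were chosen with earlier results of these data known.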

Additional observations from a re-analysis of the deposited data

Results flagged for a closer look

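In 38 probe sets of members and named genes the 4 luciferase arrays were checked for 1 array far from the others (Dixon's ratio, for which chance flags about 1 group in 20), and 5 stood out. In *Jund* luciferase replicate 4 was at 3515, the other luciferase arrays were at 3054 or less, and the ratio was 0.831. In *Nts* luciferase replicate 4 was at 362 and the lowest luciferase array at 223. In *Gclm* replicate 4 was at 701 and the lowest at 463, and in *Camk4* replicate 4 was at 1867 and the lowest at 1766. In *Mapk8ip1* luciferase replicate 1 was at 729 and the lowest at 503. Replicate 4 was the array apart in 4 of the 5, and no member besides *Jund* was among them.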

How the results depend on the processing

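All 98 values of the 7 member probe sets other than that of *Fosb* under the 14 alternatives kept their direction, and 97 kept their side of the threshold. The exception was *Jund* with array weights (0.26, adjusted p = 0.0182 in limma). *Fosb* was not tested at a minimum of 100, at 50 on 3 arrays, or without blank replicate 7. The contrast of *Fos* and *Jun* ran from -2.11 to -1.66 when 1 array was left out. With each array centred on its median 410 probe sets were called higher and 527 lower (43.8% higher), against 659 and 294 (69.2% higher), and with quantile normalization 57% were higher. Without 1 array the calls numbered 900.0 to 1117, 596 to 841 higher and 276 to 365 lower.

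Counts past the adjusted p in the lists moved most. Without a filter the higher count of the partners was 0 and the lower counts of the SRF and CREB, JNK and turnover lists were 0, 1 and 0. At a minimum of 100 the partners had 2 higher and the targets 0 lower, since *Mmp9* was below that minimum and not tested. With quantile normalization the partners had 0 higher and 1 lower, and the other lists 2, 5, 2 and 3 lower. With centring the partners had 0 higher and 1 lower, the JNK list 1 higher, and the other lists 2, 6, 4 and 4 lower. With trend and robust the partners had 2 higher, the turnover list 2 higher and the JNK list 4 lower. With array weights the counts were 2 higher and 3 lower for the partners, 8 and 2 for SRF and CREB, 7 and 4 for JNK, 4 and 2 for turnover, and 5 lower for the targets. Without 1 array the ranges were 0 to 1 higher and 0 to 1 lower for the partners, 2 to 8 and 0 to 1 for SRF and CREB, 0 to 5 and 1 to 3 for JNK, 1 to 2 and 0 to 1 for turnover, and 4 to 9 and 0 to 2 for the targets. On the probe sets used, *Srf*, *Rps6ka5*, *Elavl1*, *Braf*, *Gal*, *Bcl2l11*, *Nts* and *Gria2* passed under all 14 alternatives, and the other named list genes did not. Members below 50 have only a level here. No paired analysis was possible because the groups share no replicate number.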
